A study of Homo sapiens with 6 samples.

Results

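Interferon-stimulated genes were followed in SAS, a human cell line from a squamous carcinoma of the mouth, after knockdown of CYLD and after inhibition of ALK5, the type I receptor for TGF-β. The members were 43 gene symbols chosen as a list, and their probe sets were read through the platform annotation. Of these, 42 had at least 1 probe set of their own, 77 in all, among the 54675 probe sets of the array. STAT2 had none under its symbol alone and was not analysed here. The 6 arrays held 1 siCYLD sample with the ALK5 inhibitor, 1 siCtrl sample with the inhibitor, 2 siCYLD samples without it and 2 siCtrl samples without it. Every sample had been transfected with an siRNA, grown for 2 days and then kept for 48 h in medium without serum. Samples called untreated had DMSO, the solvent, for those 48 h. The labels name neither the siRNA sequence nor the inhibitor, and they leave it unstated whether the duplicates came from different cultures. The p-values therefore rest on the spread between the arrays alone, and that spread may be technical.

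Type I and type III interferons bind receptors that activate the kinases JAK1 and TYK2, which lead to a complex of STAT proteins with IRF9. That complex binds interferon-stimulated response elements in the promoters of most of the genes described here. Interferon gamma acts mainly through a STAT dimer at gamma-activated sites. IRF1, IRF3 and IRF7 bind related elements and can switch on some of these genes without interferon. CYLD removes ubiquitin chains from signalling proteins, and the RNA sensor RIG-I and the kinase TBK1 are among its described substrates.

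The response element is visible just upstream of many of the members, whichever way they moved. Its core was searched as GAAA, any 2 bases and GAAA again, on both strands, in the 250 bases before each transcript start in RefSeq (GRCh38.p14). It lay upstream of 24 of the 35 members with a promoter sequence (68.6%) and of 1014 of all 27305 genes (3.71%). Per promoter, 1061 of all 35116 windows of that length held it (3.02%). The gamma-activated site was searched as TTCNNNGAA, which reads the same on both strands, and lay upstream of 11 of the 35 members (31.4%) and of 2208 of all genes (8.09%). A match of letters is a description of the promoter and not evidence of binding. The stretches printed here are from members that were called in either main comparison and hold a match, together with ISG15 and CXCL10. ISG15 was tested and not called, and CXCL10 was not tested. The called members IFIT2 and IRF7 had no promoter sequence and could not be searched. HERC6, GBP2 and SP100, also called, are not shown for want of a sequence or of a match. They run 5′ to 3′ on the gene's strand and end at or before the transcript start, and capitals mark the matches.
IFIT3, chr10:89332410-89332512, plus strand: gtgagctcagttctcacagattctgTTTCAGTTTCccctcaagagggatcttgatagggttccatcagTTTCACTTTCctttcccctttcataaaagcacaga
IFIT5, chr10:89414498-89414567, plus strand: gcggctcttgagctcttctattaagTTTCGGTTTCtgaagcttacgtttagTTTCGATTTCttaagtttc
OAS3, chr12:112938437-112938473, plus strand: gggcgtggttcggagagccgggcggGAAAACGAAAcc
HERC5, chr4:88456969-88457079, plus strand: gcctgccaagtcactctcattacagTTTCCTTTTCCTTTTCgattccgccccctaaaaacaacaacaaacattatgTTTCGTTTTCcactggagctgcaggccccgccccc
EPSTI1, chr13:42992257-42992316, minus strand: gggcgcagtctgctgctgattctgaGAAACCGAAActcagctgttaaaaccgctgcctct
PLSCR1, chr3:146544652-146544711, minus strand: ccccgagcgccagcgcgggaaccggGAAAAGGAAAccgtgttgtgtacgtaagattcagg
DDX60, chr4:168318771-168318865, minus strand: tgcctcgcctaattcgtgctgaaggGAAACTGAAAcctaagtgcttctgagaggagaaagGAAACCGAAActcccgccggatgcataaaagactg
SAMD9, chr7:93118081-93118140, minus strand: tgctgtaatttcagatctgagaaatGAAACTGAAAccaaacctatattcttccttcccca
ISG15, chr1:1013359-1013424, plus strand: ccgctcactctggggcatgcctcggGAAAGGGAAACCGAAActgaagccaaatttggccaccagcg
CXCL10, chr4:76023684-76023743, minus strand: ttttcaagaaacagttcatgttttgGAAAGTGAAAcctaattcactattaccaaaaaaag
For 2 transcription factor genes the gamma-activated site is shown instead.
IRF1, chr5:132490864-132490922, minus strand: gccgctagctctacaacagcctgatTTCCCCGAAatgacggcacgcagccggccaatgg
IRF9, chr14:24161177-24161235, plus strand: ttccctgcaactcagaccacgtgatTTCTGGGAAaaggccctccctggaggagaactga
In EPSTI1 a TTCNNNGAA match overlaps the capitals. IFIT3 and PLSCR1 each have 2 annotated starts with a match, and the stretch shown is that of 1 of the 2 starts.

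**Figure D1:**
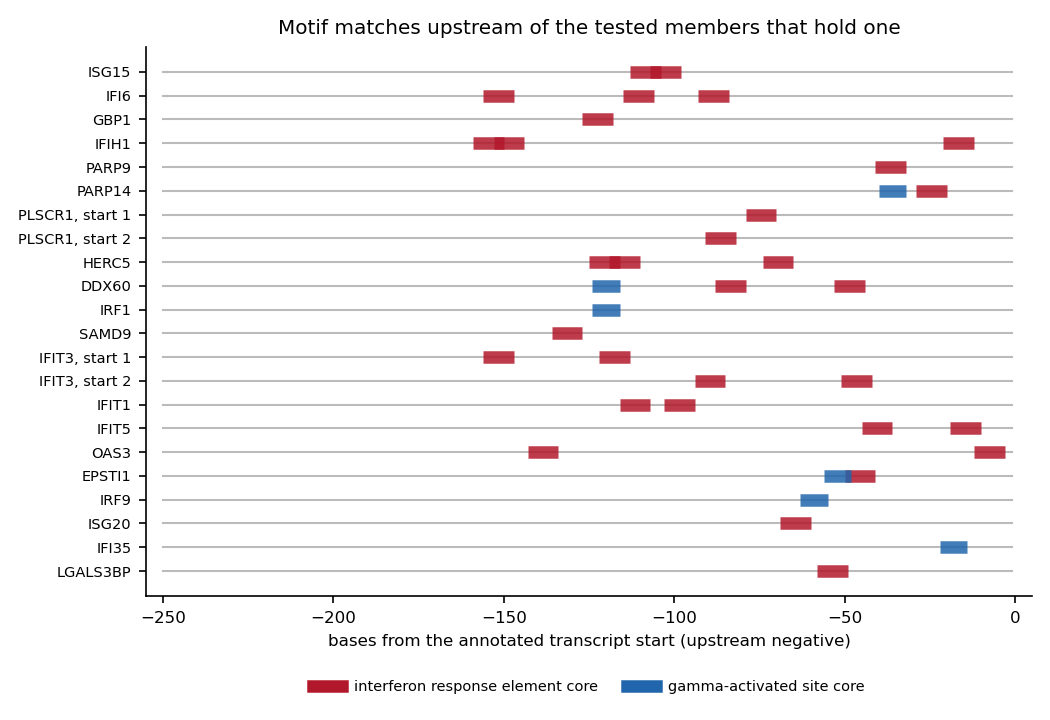
Matches of the interferon response element core (red) and of the gamma-activated site core (blue) along the 250 bases upstream of the transcript start, 1 line per annotated start, for the tested members that hold a match. Distance in bases from the start is on the horizontal axis. Among tested members with a promoter sequence, 17 of 24 hold a response element core.

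Many of the best known interferon-stimulated genes gave signals at the array's floor in these cells. Values are MAS5 signals, a linear measure of a probe set's brightness on an array. Testing required that at least 1 of a probe set's 4 group means exceed 79.3, the median of all signals, and 46 of the 77 passed. For 13 members no probe set passed: IFI27, IFI44, IFI44L, MX1, OAS1, OAS2, RSAD2, DHX58, XAF1, USP18, BST2, CXCL10 and CXCL11. Their 21 probe sets read between 0.66 and 78.7 on all arrays. The MAS5 table carries no detection call, so these signals cannot be told from background here. MX1, an antiviral GTPase, read 28.1 and 69.5 in the siCYLD and siCtrl inhibitor arrays, 57.4 and 47.1 in untreated siCYLD and 25.8 and 78.7 in untreated siCtrl. CXCL10, a T-cell attracting chemokine, read 6.98, 10.2, 41.1 and 59.8, and 45.1 and 35.1 in the same order.

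The remaining 29 members were tested, of which 21 lay above 79.3 in all 4 groups. The other 8 (CMPK2, GBP1, GBP2, HERC5, IFI6, IFIT1, MX2 and SAMD9L) passed through only 1 or 2 groups and so had to differ somewhat. Genes of the pathway upstream were mixed. The ligand genes IFNB1, IFNL1, IFNL2, IFNK and IFNG read at most 38.3, 73.7, 68.9, 13.7 and 36.6 on any array. IFNE, an interferon gene of epithelia, and the receptor genes IFNAR1 and IFNAR2 passed the filter.

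**Figure D2:**
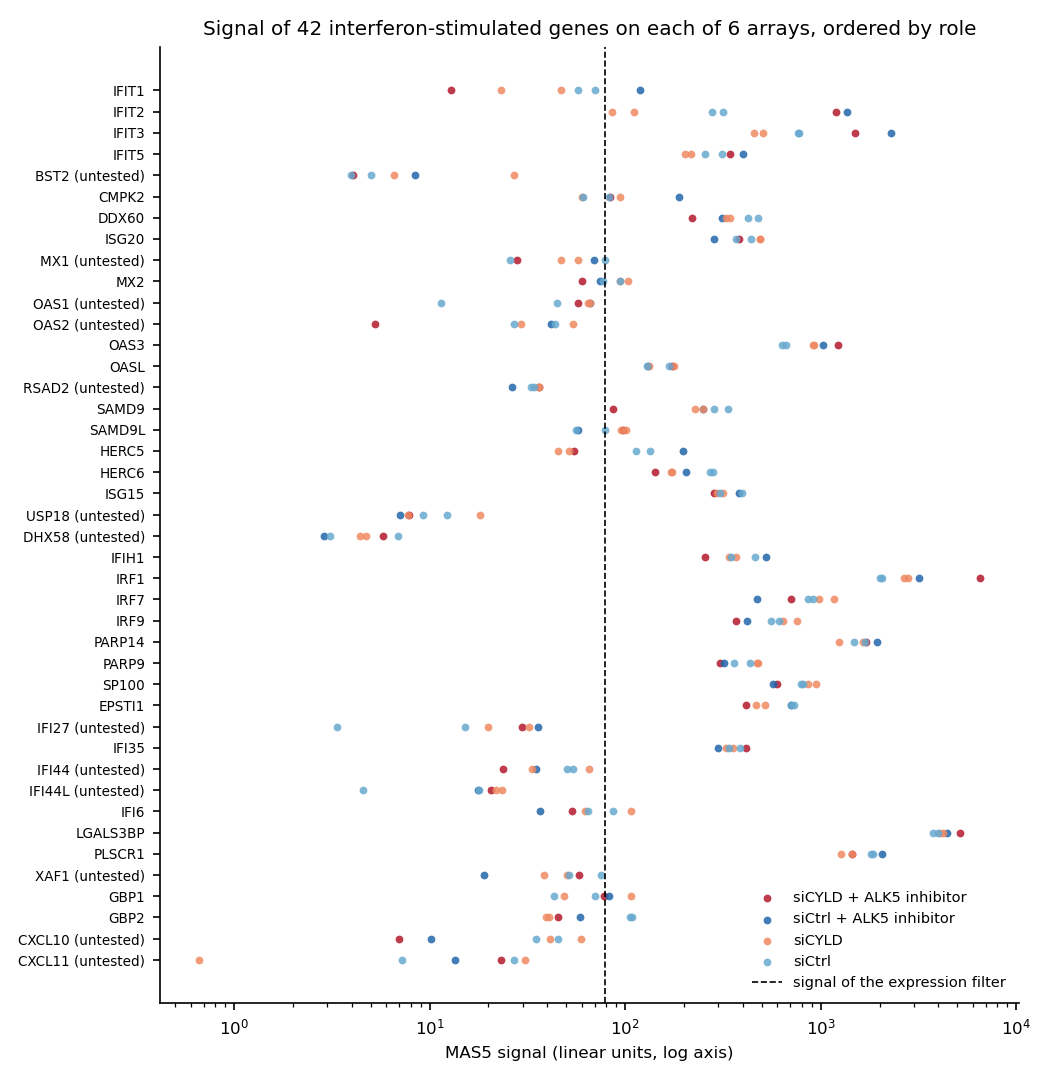
MAS5 signal on a log axis for 42 members, 1 row per gene ordered by role, with 1 point per array coloured by group and the filter signal of 79.3 as a dashed line. The 13 untested genes lie left of the line on every array. Signals of different genes come from different probe sets and are not compared with each other.

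The samples and their labels were checked first. CYLD, represented by its brightest probe set, read 278 and 230 in untreated siCYLD arrays and 411 and 500 in untreated siCtrl arrays (log2 difference -0.80 ± 0.18 standard error, adjusted p = 0.0065, limma). In the inhibitor pair it read 176 in siCYLD and 349 in siCtrl. The array titled siCYLD replicate 1 names the control siRNA as its source, and that titled siCtrl replicate 2 names the CYLD siRNA. Groups follow the titles. With both of these arrays left out of an additive fit, the CYLD difference was -0.86 (adjusted p = 0.0247), and without siCtrl replicate 2 alone it was -0.66 (adjusted p = 0.0584). It was -1.24 for the mean of the CYLD probe sets. The knockdown and the inhibitor effect across siRNAs are also given with both arrays left out, while effects within 1 siRNA and the interaction could not be fitted without them. All 6 measured squamous epithelial markers passed the filter, and their summed signal was 45500 and 55400 in the siCYLD and siCtrl inhibitor arrays and 41100 to 43500 in untreated ones. EPCAM and CDH1 were between 11700 and 21900 on all arrays. The basal keratin gene KRT5 read 5600 and 12500 in the siCYLD and siCtrl inhibitor arrays, against 900 to 1250 untreated (2.98 ± 0.16, adjusted p = 5.28e-06). The desmosomal cadherin gene DSG3 read 754 and 820 in untreated siCYLD, against 1210 and 1260 in untreated siCtrl (-0.64 ± 0.12, adjusted p = 0.00224). The keratin gene KRT14 read only 62.3 to 148 on the 6 arrays, with an inhibitor difference of -0.03 that was not called. The leukocyte marker PTPRC read 4.16 to 42.3. Of the 9 measured leukocyte markers 4 passed the filter, with CD79A at 110 to 205 and CSF1R at 55.2 to 178 among them. The 3 plasmacytoid dendritic cell markers did not pass the filter. The summed signal of 9 leukocyte markers was 507 and 477 in the siCYLD and siCtrl inhibitor arrays and 567 to 751 in untreated ones. That of 4 endothelial markers was 849 and 954 with the inhibitor and 267 to 354 without, with CDH5 at 462 and 587 against 5.83 to 63. PECAM1, also among these 4, read 188 to 216 on all arrays. For 7 fibroblast markers, of which 4 passed the filter, the sum was 914 and 716 with the inhibitor and 735 to 898 without. The actin 3′/5′ ratio, a measure of RNA integrity, was 2.26 to 2.48 in the 3 siCYLD arrays and 3.21 to 3.67 in the 3 siCtrl arrays. The part of these shifts in the differences below was not tested. In RNA from whole cultures, fewer cells expressing a gene and less RNA per cell cannot be told apart.

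With the CYLD siRNA, IFIT2, IFIT3, HERC5, HERC6, EPSTI1, PLSCR1 and GBP2 fell, and IRF1 and OAS3 rose. Of 29 members tested, 9 were called at an adjusted p below 0.05 (limma, 2 arrays against 2), 7 lower and 2 higher, which is 31% of them. HERC5 and GBP2 are in that count although they passed the filter only through siCtrl groups, where they are high. With no filter 6 of 42 members were called, beside 9.56% of all genes, and HERC5, HERC6 and GBP2 were not called. With the filter, 21.3% of all 12935 genes were called, 9.49% higher and 11.8% lower. The median log2 difference of the members was -0.08, against -0.041 over all genes. Untreated siCYLD and siCtrl arrays did not overlap for 20 of the 29 members (69%), against 60.9% of all genes.

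The IFIT genes encode proteins that bind viral RNA and restrain its translation. In RefSeq the 4 of them lie side by side on chromosome 10, with only IFIT1B and a pseudogene of the family among them. IFIT2 read 111 and 85.9 in untreated siCYLD arrays, against 315 and 277 in untreated siCtrl arrays. The groups lay well apart, and the log2 difference was -1.45 ± 0.17 (adjusted p = 5.76e-05). A second IFIT2 probe set, at 93 and 86.6 against 129 and 110, gave -0.35. IFIT3 read 456 and 508 in siCYLD, against 761 and 774 in siCtrl, a difference of -0.66 ± 0.12 (adjusted p = 0.00205). A second IFIT3 probe set was nearly level, at 160 and 172 against 182 and 157 (-0.03), and for the mean of both the call was lost (-0.34, adjusted p = 0.0932). IFIT5 read 216 and 203 against 257 and 312, and its difference of -0.41 ± 0.18 was not called (adjusted p = 0.124). IFIT1 read 47.2 and 23.2 against 70.5 and 57.5, below the filter in both groups, with a difference of -0.68 ± 0.46 that was not called.

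ISG15 is a small ubiquitin-like protein that HERC5 attaches to newly made proteins. HERC5 read 51.4 and 45.2 in siCYLD arrays, against 134 and 114 in siCtrl arrays, a difference of -1.12 ± 0.31 (adjusted p = 0.0222). It passed the filter through the siCtrl groups alone, and with no filter its adjusted p was 0.0637. Its relative HERC6 read 174 and 171 against 270 and 280 (-0.63 ± 0.20, adjusted p = 0.04, and 0.119 with no filter). ISG15 itself read 296 and 316 against 304 and 394, and the groups overlapped. Its difference of -0.17 was not called, with a 95% interval of -0.55 to 0.21.

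Among the other members that fell, EPSTI1 read 517 and 468 in siCYLD, against 703 and 726 in siCtrl (-0.52 ± 0.14, adjusted p = 0.0152). Its second probe set gave -0.39. PLSCR1, a phospholipid scramblase, read 1450 and 1270 against 1810 and 1860 (-0.43 ± 0.11, adjusted p = 0.0162), and its second kept probe set gave -0.14. GBP2, a guanylate-binding GTPase, read 40.8 and 39.3 against 108 and 106 (-1.14 ± 0.38, adjusted p = 0.0478), and it passed the filter through untreated siCtrl alone. With no filter its adjusted p was 0.074.

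The members that rose did so by less. IRF1, the transcription factor named above, read 2800 and 2670 in siCYLD, against 2070 and 2020 in siCtrl, a rise of 0.42 ± 0.10 (adjusted p = 0.00831). Its second probe set gave 0.24. OAS3, a synthetase of the oligoadenylates that activate RNase L, read 910 and 927 against 663 and 631 (0.50 ± 0.12, adjusted p = 0.0107). IRF7 and IRF9 had differences of 0.26 and 0.25 and were not called (adjusted p = 0.18 and 0.245). Without the intensity trend in limma neither rise was called, with adjusted p = 0.0803 for IRF1 and 0.0587 for OAS3. EPSTI1 and PLSCR1 also lost their calls there (adjusted p = 0.0601 and 0.0984).

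Under the inhibitor the siCYLD and siCtrl arrays could be compared only as 1 array each, without a test. HERC5 read 54.8 in siCYLD and 197 in siCtrl (-1.59), EPSTI1 413 and 705 (-0.75), and PLSCR1 1450 and 2060 (-0.50), so these 3 differed in the same direction as without it. So did HERC6 (-0.48), GBP2 (-0.29) and OAS3 (0.24), and the members in the next sentences. IFIT2 read 1200 and 1360 in the siCYLD and siCtrl inhibitor arrays (-0.17) and IFIT3 1500 and 2300 (-0.61). IRF1 read 6540 in siCYLD and 3180 in siCtrl (1.04), the only member at least 2-fold higher, and 4 members were at least 2-fold lower. These were IFIT1, HERC5, SAMD9 and CMPK2. IFIT1 passed the filter through the siCtrl inhibitor array alone and HERC5 through siCtrl groups alone, so the filter favoured lower siCYLD signals for both. CMPK2 passed through the inhibitor arrays alone. Over all genes, 6.73% differed by at least 2-fold, 3.91% higher and 2.81% lower. All 3 siCYLD arrays lay on one side of all 3 siCtrl arrays for 8 of the 29 members, 7 of them lower (EPSTI1, GBP2, HERC5, HERC6, IFIT1, PLSCR1, SAMD9) and SAMD9L higher. For all genes that share was 27.9%, close to the 27.6% of the members. Among the 8, IFIT1, GBP2 and HERC5 passed the filter through siCtrl groups alone and SAMD9L through siCYLD groups alone. For these the filter favoured a difference in that direction.

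Leaving out single arrays changed several of these calls. Without untreated siCYLD replicate 2, EPSTI1 (-0.45), HERC5 (-1.05) and PLSCR1 (-0.34) were among the members that lost their calls. Without untreated siCtrl replicate 2, EPSTI1 (-0.50) and PLSCR1 (-0.41) were among those lost. HERC5 was also lost without untreated siCtrl replicate 1 (-1.02, adjusted p = 0.0869). GBP2 and HERC6 lost their calls whichever of the 4 untreated arrays was left out, with values of -1.16 to -1.12 and -0.65 to -0.60. When both arrays of conflicting labels were left out of an additive fit, IFIT2 (-0.93, adjusted p = 0.0316), IFIT3 (-0.59, adjusted p = 0.0428), HERC5 (-1.44, adjusted p = 0.0275), EPSTI1 (-0.66, adjusted p = 0.038) and IRF1 (0.70, adjusted p = 0.0182) were called. SAMD9 gained a call there (-0.95, adjusted p = 0.04, against -0.35 and no call with all arrays), while HERC6, PLSCR1, GBP2 and OAS3 were not (adjusted p = 0.252, 0.0758, 0.455 and 0.265).

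**Figure D3:**
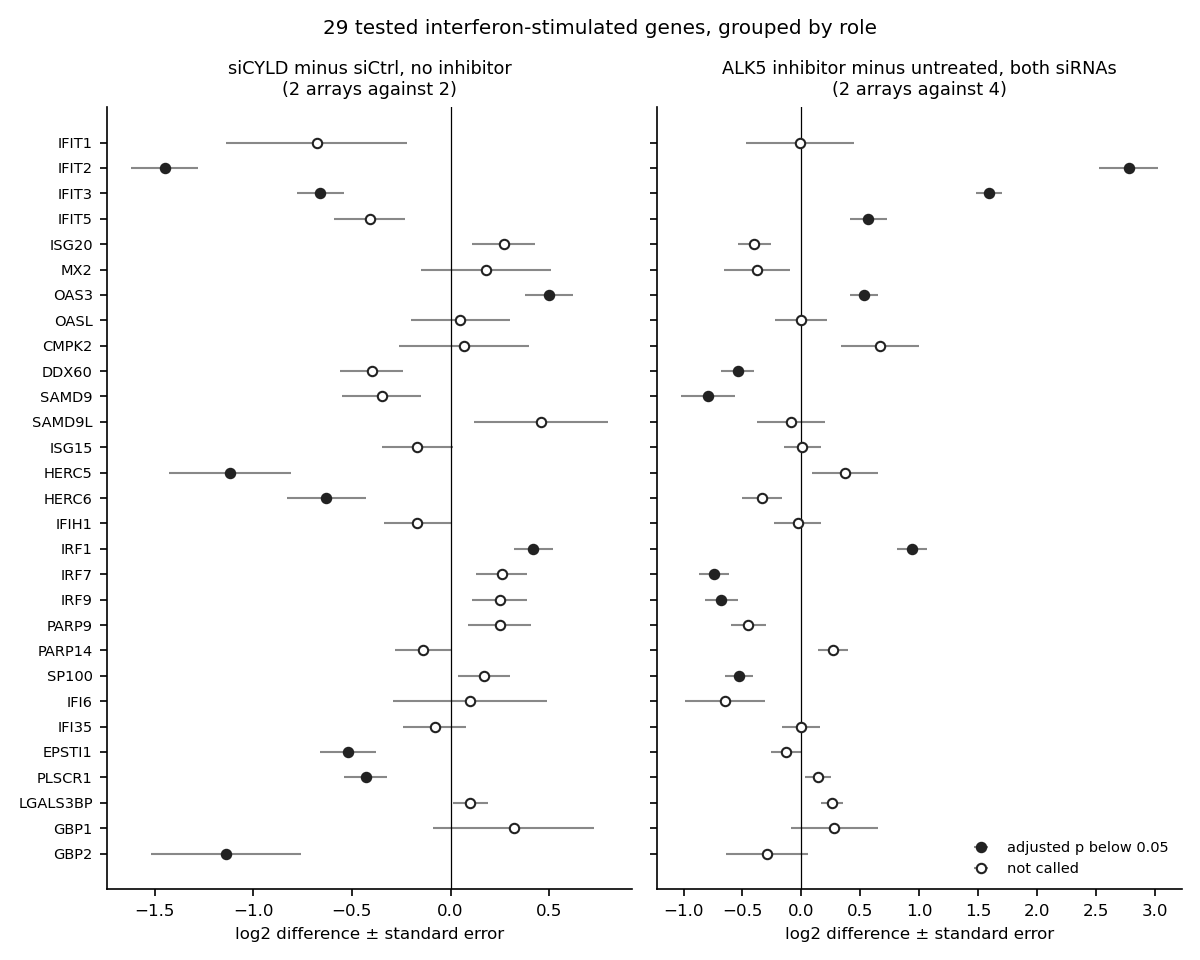
Log2 differences with standard errors of the 29 tested members, grouped by role from top to bottom, for siCYLD minus siCtrl without inhibitor (left) and for inhibitor minus untreated across both siRNAs (right). Filled points passed an adjusted p of 0.05. IFIT2 and IFIT3 lie left of 0 in the first panel and farthest right in the second, and IRF1 and OAS3 lie right of 0 in both.

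The ALK5 inhibitor raised IFIT2, IFIT3, IFIT5, IRF1 and OAS3 and lowered IRF7, IRF9, SP100, SAMD9 and DDX60. The test set 2 inhibitor arrays against 4 untreated ones in an additive model with the siRNA. Of 29 members, 10 were called (34.5%), 5 higher and 5 lower. Over all genes 20% were called, 11.2% higher and 8.82% lower. The members' median was -0.01, against 0.006 over all genes. This comparison and the knockdown share the untreated arrays.

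IFIT2 read 1200 in the siCYLD inhibitor array, against 111 and 85.9 in untreated siCYLD arrays. In siCtrl cells it read 1360 with the inhibitor, against 315 and 277 without. Both inhibitor arrays lay far above all 4 untreated arrays, with a log2 difference of 2.78 ± 0.25 (adjusted p = 7.27e-05). The second probe set rose too in both cell populations, by 1.29 in siCYLD and 1.33 in siCtrl. IFIT3 read 1500 with the inhibitor in siCYLD cells, against 456 and 508 without. In siCtrl cells it read 2300 with the inhibitor, against 761 and 774 without. The difference was 1.59 ± 0.11 (adjusted p = 2.06e-05), and the second probe set gave 0.62 in siCYLD and 0.20 in siCtrl cells. IFIT5 read 342 against 216 and 203 in siCYLD and 399 against 257 and 312 in siCtrl (0.57 ± 0.16, adjusted p = 0.029). Its second probe set gave 0.31 in siCYLD and 0.47 in siCtrl cells, and for the mean of both the call was lost (0.48, adjusted p = 0.0616, limma). IFIT1, in the same gene cluster, read 12.8 against 47.2 and 23.2 in siCYLD and 119 against 70.5 and 57.5 in siCtrl. Its inhibitor difference of -0.01 ± 0.46 was not called, and signals this low carry large errors.

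The interferon regulatory factors moved in opposite directions. IRF1 read 6540 in the siCYLD inhibitor array, against 2800 and 2670 untreated, and 3180 in the siCtrl inhibitor array, against 2070 and 2020 untreated. Its difference was 0.94 ± 0.13 (adjusted p = 0.00092), and its second probe set gave 1.39 and 0.65 in siCYLD and siCtrl cells. IRF7, a regulator of type I interferon genes, read 708 with the inhibitor in siCYLD cells, against 983 and 1170 without, and 473 in siCtrl cells, against 918 and 862 (-0.74 ± 0.13, adjusted p = 0.00321). IRF9, the DNA-binding part of the complex named above, read 367 against 645 and 753 in siCYLD and 421 against 555 and 612 in siCtrl (-0.68 ± 0.14, adjusted p = 0.0092). For all 3 factors the inhibitor arrays did not overlap the untreated ones.

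**Figure D4:**
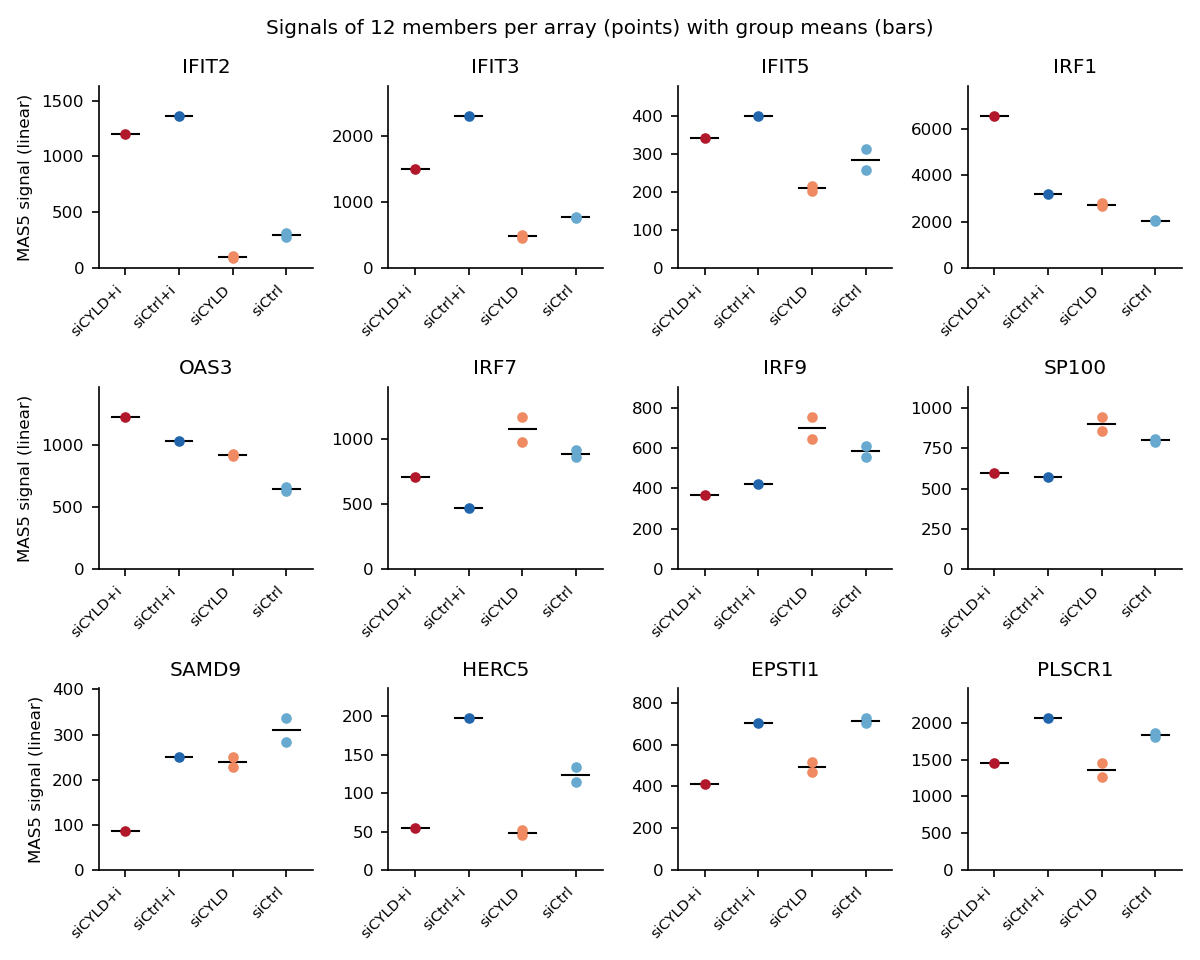
MAS5 signal (linear axis from 0) of 12 members, 1 point per array and a bar at the group mean, in the order siCYLD with inhibitor, siCtrl with inhibitor, siCYLD and siCtrl (+i marks the inhibitor). IFIT2 is at 1200 and 1360 with the inhibitor and at most 315 without it, while HERC5, EPSTI1 and PLSCR1 are lower in both siCYLD groups than in both siCtrl groups.

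OAS3 rose with the inhibitor as it did with the knockdown. It read 1220 against 910 and 927 in siCYLD and 1030 against 663 and 631 in siCtrl (0.53 ± 0.12, adjusted p = 0.0102). SP100, a component of nuclear bodies, fell by 0.53 ± 0.12 (adjusted p = 0.0102), reading 596 against 942 and 858 in siCYLD and 571 against 789 and 810 in siCtrl. Its 4 other kept probe sets were all lower with the inhibitor, at -1.26 to -0.41 in siCYLD and -0.62 to -0.05 in siCtrl. The probe set at -1.26 read 26.3 and 64 in the siCYLD and siCtrl inhibitor arrays and 70.5 to 104 untreated. It passed the filter through untreated groups alone, so the filter favoured a fall there. DDX60, a helicase-like antiviral factor, read 220 against 329 and 344 in siCYLD and 314 against 476 and 424 in siCtrl (-0.54 ± 0.14, adjusted p = 0.0223). SAMD9, which restricts poxviruses, read 87.1 against 251 and 228 in siCYLD and 251 against 336 and 283 in siCtrl (-0.79 ± 0.23, adjusted p = 0.0335). Its second probe set gave -0.84 in siCYLD but 0.17 in siCtrl cells, and for the mean of both the call was lost (-0.56, adjusted p = 0.155, limma). With the siCYLD inhibitor array omitted, SAMD9 gave -0.28 (adjusted p = 0.48).

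Several members showed no call in either comparison. ISG15, the RNA sensor gene IFIH1, IFI35 and OASL had inhibitor differences of 0.01, -0.03, 0.00 and 0.00, with 95% intervals of -0.34 to 0.36, -0.46 to 0.41, -0.36 to 0.36 and -0.49 to 0.49. LGALS3BP, a secreted galectin-binding glycoprotein, read 3770 to 5140 over the 6 arrays, and its difference of 0.26 ± 0.09 was not called (adjusted p = 0.0668). The remaining uncalled members IFI6, MX2, CMPK2, GBP1 and SAMD9L read between 36.5 and 189 on all arrays. PARP14 and ISG20 gave 0.27 and -0.40 (adjusted p = 0.164 and 0.0635). Inhibitor and untreated arrays did not overlap for 14 of the 29 members (48.3%), against 30.1% of all genes. Among the 14, IFI6 and MX2 passed the filter through untreated groups alone.

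Probe sets of 1 gene did not always go together. Of 14 tested members with several kept probe sets, 5 had mixed signs in the knockdown, and 5 each for the inhibitor in siCYLD and in siCtrl cells. The widest split was in SAMD9L, a relative of SAMD9. Its representing probe set read 97 and 57.4 in the siCYLD and siCtrl inhibitor arrays and 55.8 to 101 untreated. Its second probe set read 49.2 and 92.1 with the inhibitor and 7.89 to 9.50 on all 4 untreated arrays. That probe set passed the filter through the siCtrl inhibitor array alone. OASL and PARP14 each had a second probe set that was lower with the inhibitor in siCYLD cells (-1.19 and -1.13), where the first gave 0.16 and 0.25. That of PARP14 read 30.6 in the siCYLD inhibitor array, against 84.4 and 88.2 in untreated siCYLD. It passed the filter through untreated siCYLD alone, so the filter favoured this fall.

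Within each siRNA the inhibitor was set as 1 array against 2, the lone array being assumed to vary as the duplicates did. In siCYLD cells 9 of 29 members were called, 4 higher and 5 lower, beside 22.4% of all genes (12.2% higher and 10.2% lower). In siCtrl cells 5 were called, 4 higher and 1 lower, beside 9.36% of all genes (5.02% higher and 4.34% lower). IFIT2 rose by 3.42 ± 0.21 in siCYLD (adjusted p = 5.92e-07) and by 2.14 ± 0.21 in siCtrl (adjusted p = 7.05e-05). IFIT3 rose by 1.61 ± 0.15 and 1.56 ± 0.15, and the difference between the siRNAs was 0.04 ± 0.21. IRF1 rose by 1.25 ± 0.12 in siCYLD and 0.63 ± 0.12 in siCtrl. IRF7 fell in both, by 0.59 ± 0.16 and 0.89 ± 0.16. Its call in siCYLD was lost without siCYLD replicate 2 (-0.46, adjusted p = 0.104).

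PARP9, a member of the PARP family, was called in siCYLD cells (-0.61 ± 0.19, adjusted p = 0.0393). It gave -0.29 in siCtrl, and the difference between the siRNAs was -0.31 ± 0.27 (adjusted p = 0.668, limma). The PARP9 call was lost without siCYLD replicate 1 (adjusted p = 0.0712), without siCYLD replicate 2 (adjusted p = 0.0635) and with probe sets of the _s_at and _x_at kinds left out (-0.35, adjusted p = 0.236). Leaving out 1 siCYLD array also ended the siCYLD calls of IFIT5 (without replicate 2, adjusted p = 0.0892) and SP100 (without replicate 1, adjusted p = 0.0653). Without the intensity trend all 5 siCtrl calls were lost, those of IFIT2 and IFIT3 narrowly at an adjusted p that rounds to 0.05. In siCYLD cells 5 members were called there. Over all genes that setting called 0.271% in siCtrl and 8.16% in siCYLD cells.

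The test of the difference between those effects called 0 of 29 members (limma, 4 at unadjusted p under 0.05), beside 1.67% of all genes (0.982% higher and 0.688% lower). IFIT2 came nearest, the rise of its brightest probe set being larger in siCYLD by 1.28 ± 0.30 (adjusted p = 0.0532). Its second probe set rose about equally, by 1.29 in siCYLD and 1.33 in siCtrl. Over the alternatives run, the IFIT2 value ran from 0.62 to 1.44 and was called in 7 of 14. IRF1 (0.62 ± 0.17, adjusted p = 0.105), SAMD9 (-1.03 ± 0.34, adjusted p = 0.175) and IFIH1 (-0.83 ± 0.30, adjusted p = 0.22) were the other 3 at unadjusted p under 0.05. IFIH1 read 256 against 340 and 367 in siCYLD and 526 against 346 and 460 in siCtrl.

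**Figure D5:**
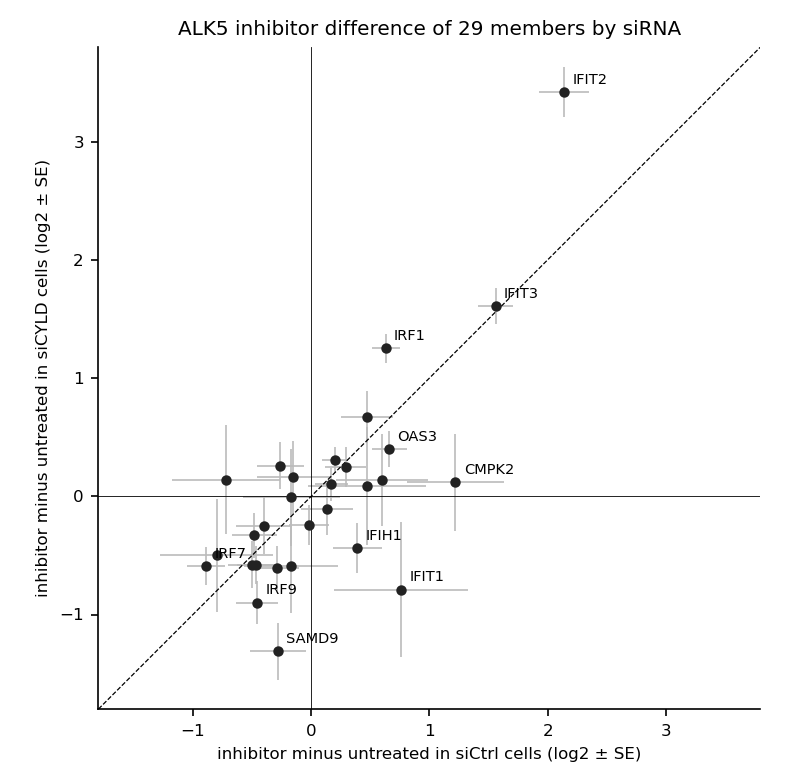
Inhibitor minus untreated log2 difference of the 29 tested members in siCYLD cells (vertical) and in siCtrl cells (horizontal), with standard errors, 1 array against 2 on each axis. The dashed line marks equal differences. IFIT3 lies on it at 1.61 and 1.56, IFIT2 above it at 3.42 and 2.14, and SAMD9 and IFIT1 below it.

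The inhibitor calls of IFIT2, IFIT3, IRF1 and IRF7 across both siRNAs held in every alternative that gave a value. Without the siCYLD inhibitor array IRF9 (-0.46), IFIT5 (0.47), DDX60 (-0.50), SP100 (-0.47) and SAMD9 lost their calls. OAS3 was lost without the siCtrl inhibitor array (0.40, adjusted p = 0.0718). DDX60 was lost in 5 of the 6 fits that left out 1 array, and IFIT5 and SAMD9 in 4 each. With both arrays of conflicting labels left out 5 members were called, beside 10.2% of all genes. These were IFIT2 (2.82, adjusted p = 1.78e-06), IFIT3 (1.56), IRF1 (0.95), IRF7 (-0.82) and IRF9 (-0.70).

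Among genes of the interferon pathway upstream of the members, IFNE, TICAM1, SOCS3 and IKBKE rose most with the knockdown. Of 28 tested, 9 were called higher and 1 lower, beside 9.49% and 11.8% of all genes, and the median was 0.24. IFNE read 1150 and 933 in siCYLD, against 237 and 181 in siCtrl (2.24 ± 0.18). TICAM1, the adaptor of the receptor TLR3, rose by 1.21 ± 0.21, the feedback inhibitor gene SOCS3 by 1.15 ± 0.12, and the kinase gene IKBKE by 0.86 ± 0.15. IFNE read 411 with the inhibitor in siCYLD cells and 152 in siCtrl cells, which was a fall of 0.86 ± 0.21 across both (adjusted p = 0.0157). That call did not hold once the siCYLD inhibitor array (-0.41, adjusted p = 0.269) or untreated siCtrl replicate 1 (-0.84, adjusted p = 0.0536) was omitted. With the inhibitor 1 pathway gene was higher and 7 lower, beside 11.2% and 8.82% of all genes. Those lower included the DNA-sensing adaptor gene STING1 (-0.64 ± 0.14), STAT3 (-0.57 ± 0.10) and the receptor chain gene IL10RB (-0.54 ± 0.16). IL10RB lost its call in each of the 6 fits that left out 1 array, at -0.68 to -0.40. With both arrays of conflicting labels left out, 5 pathway genes were called in the knockdown and 3 with the inhibitor, the latter beside 10.2% of all genes. TICAM1 was not called there in the knockdown (0.48, adjusted p = 0.179). STING1 lost its inhibitor call without the siCYLD inhibitor array (-0.55, adjusted p = 0.0829).

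A second list of 38 tested interferon-induced genes, none of them members, was also mixed. With the knockdown 5 were higher and 6 lower (28.9% together), beside 9.49% and 11.8% of all genes. Among them were LAMP3 (-0.72 ± 0.12), APOL6 (0.72 ± 0.13), TRIM14 (0.55 ± 0.10) and MOV10 (-0.55 ± 0.12), with NMI also at -0.55. With both arrays of conflicting labels left out, 2 were called in the knockdown and 4 with the inhibitor, the latter beside 10.2% of all genes. LAMP3, APOL6 and MOV10 (-0.32, 0.07 and -0.41) were not called there in the knockdown. With the inhibitor 3 were higher and 7 lower (26.3% together), beside 11.2% and 8.82% of all genes. The largest were APOL1 (-0.86 ± 0.13), SLFN5 (-0.74 ± 0.10), the inflammatory caspase gene CASP4 (-0.74 ± 0.16) and the mitochondrial exoribonuclease gene PNPT1 (0.60 ± 0.11). Without the siCYLD inhibitor array CASP4 (-0.45, adjusted p = 0.152) and PNPT1 (0.40, adjusted p = 0.0767) lost their calls.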

How the data were processed

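Per the submitters' processing notes MAS5 produced the deposited values, which are linear intensities, 1 per probe set and array. No MAS5 version is given in the sources used here. After trimming 2% at each end, every array's mean was 500.1, and arrays have no read depth. An offset of 16.06, the 20th percentile of all signals, was added before log2, so fold changes near the floor are understated. Of 54675 probe sets, 41091 had 1 gene symbol, 1801 several and 11721 none, and 62 were controls. The brightest kept probe set stood for its gene (12935 of 19775 genes). limma 3.58.1 (R 4.3.3) was run with an intensity trend, with two-sided p-values adjusted by Benjamini-Hochberg over all genes. A model of 4 group means had 2 residual and 10.9 prior degrees of freedom, and the additive model had 3 and 7.98. The procedure was tested on simulated data. Promoter sequences came from RefSeq (35 of 43 members matched). Members and lists were chosen with earlier results of these data known. Values are given for members called in any comparison or with kept probe sets of opposite sign, and for up to 4 called genes per comparison of each other list. Alternatives covered the offset, filter, normalization, moderation, probe set rule, replicate block, labels and each array left out. Plots used matplotlib 3.10.9 and Python 3.11.15.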

Additional observations from a re-analysis of the deposited data

Results flagged for a closer look

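In 2 interferon-induced genes outside the member list the inhibitor difference differed between the siRNAs by the interaction test. APOL6 read 983 with the inhibitor in siCYLD cells, against 1380 and 1650 without, and 1550 in siCtrl cells, against 939 and 875, so the difference between the effects was -1.37 ± 0.22 (adjusted p = 0.00585, limma). LAMP3, a lysosomal membrane protein gene, read 2920 against 2370 and 2490 in siCYLD and 2510 against 4520 and 3580 in siCtrl, a difference of 0.94 ± 0.20 (adjusted p = 0.037). Both calls were lost with no filter (adjusted p = 0.0623 for APOL6 and 0.192 for LAMP3), without the intensity trend (0.194 and 0.324) and for the mean of probe sets (0.197 and 0.0904).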

How the results depend on the processing

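The number of members called was 9 for the knockdown, 10 for the inhibitor across siRNAs, 9 in siCYLD, 5 in siCtrl and 0 for the interaction. Leaving out 1 array at a time gave 4 to 7, 5 to 11, 6 to 10, 5 to 6 and 0 to 1. Without the intensity trend the knockdown count was 5 (0 higher), beside 9.42% of all genes. The siCYLD count was 5 there, beside 8.16% of all genes, and the siCtrl count 0, beside 0.271%. The interaction count was 1 with the filter at the 75th percentile, 1 with quantile normalization and 1 with robust moderation. Over all genes 3.12%, 1.6% and 1.75% were called in these 3 settings. The inhibitor count was 5 in the additive model without both arrays with conflicting labels, beside 10.2% of all genes. Interaction and within-siRNA effects could not be fitted without both arrays, since no residual degrees of freedom remain. With replicate number as a block the counts were 9, 9, 11, 7 and 2, the last beside 5.59% of all genes. The labels give the numbers no shared origin. Deviations of untreated siCYLD and siCtrl replicate 1 from their group means correlated at 0.045 over all genes tested. Grouping by source name puts 1 array of each title in each group, so that a difference between titles cancels. The knockdown count was then 0, and 0 of all genes were called. There the signs of HERC6 (0.01), IFIT3 (0.09), IRF1 (-0.05), OAS3 (-0.02), IFNE (-0.33), TICAM1 (-0.43), IKBKE (-0.10), MOV10 (0.26) and CYLD (0.01) turned. Outside that grouping 0 member differences reversed. The differences recomputed were those of members called in the main fit, together with the IFIT2 interaction. Of these 518, 425 kept their side of the threshold, 82 lost their call and 7 gained it. All 7 gains were of the IFIT2 interaction. Gains of members not called in the main fit, such as SAMD9 in the knockdown, were not counted. The cause of these shifts was not tested. For 13 members the array signal itself is the limit.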
